A study of Homo sapiens with 6 samples.

Results

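Growth factors and the receptor tyrosine kinases that bind them, other than the HER family, were examined in JIMT-1 cells, an established HER2+ breast cancer cell line isolated from a patient with trastuzumab-resistant disease. Of the 758 genes in the table, 26 had a symbol beginning with FGF, PDGF, VEGF, IGF, ANGPT, NTRK, EPHA or EPHB, or were EGF, HGF, MET, KIT, FLT1, FLT3, FLT4, KDR or TEK, with VEGFA left out. These were 12 secreted ligands, 12 receptors and 2 intracellular FGF homologous factors, FGF12 and FGF13. The cells were grown in medium with fetal bovine serum and treated for 24 h with PBS (CTL, 3 samples) or with 250 µM aCT1 (3 samples), a cell-penetrating peptide modelled on the tail of the gap junction protein connexin 43. Total RNA was counted with barcoded probes of the nCounter Breast Cancer 360 panel, and all 6 samples came from this 1 line. The labels do not say whether the 3 samples of a group were separate cultures, so the p-values measure the spread between these samples.

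Receptor tyrosine kinases span the plasma membrane and become active when a secreted ligand brings their chains together, after which they feed the RAS-MAPK and PI3K-AKT pathways. Many of the ligands are made by stroma and taken up by epithelium: HGF and FGF7 come mainly from fibroblasts, while their receptors MET and FGFR2 are carried by epithelial cells. Others serve blood vessels, such as the receptors KDR and TEK. In breast cancer, MET, the FGF receptors and IGF1R are known as alternative routes of growth signalling beside HER2.

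The probe counts per sample ran from 1437572 to 1494919, and the 26 genes made up 0.452% to 0.466% of the normalized counts of a sample. The labelled epithelial, HER2+ identity was checked on the 4 genes of its marker list found in the table. CDH1, KRT7, ERBB2 and GRB7 had means of 5852 to 9985 normalized counts. The 14 genes of blood cell lineages in the table, which gave the low end of the scale for an epithelial line, had means of 6.46 to 41.9 normalized counts, with CD8A the highest. Each gene has 1 probe, which captures a transcript once whatever its length, but probes differ in capture, so the order of levels between genes is approximate. In RNA from a culture, fewer cells that carry a transcript and less of it per cell cannot be told apart.

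The receptors made up most of the signal of the 26 genes. They summed to 5740, 5926 and 5704 normalized counts in the CTL samples and to 5870, 6008 and 5783 in the aCT1 samples. The ligands summed to 765, 723 and 801 normalized counts in CTL and to 810, 728 and 780 in aCT1. Receptors therefore held 88.3% ± 0.729 of the summed counts of ligands and receptors in CTL and 88.4% ± 0.698 in aCT1 (SD, n = 3 in each), a difference within the spread between replicates. The share depends on which ligands the rule takes in. VEGFA, left out, had means of 378 normalized counts in CTL and 372 in aCT1. BDNF, a ligand outside the 26 genes, had means of 1424 in CTL and 1348 in aCT1. Among the genes the rule takes in, a single gene held the largest share of each side. On the ligand side, PDGFB had means of 381 normalized counts in CTL and 364 in aCT1, close to VEGFA and below BDNF. The PDGFB share therefore holds only for the ligands the rule takes in. MET held 48.0% ± 1.09 of the receptor counts in CTL and 47.4% ± 0.215 in aCT1 (SD, n = 3), and PDGFB held 49.98% ± 1.87 of the ligand counts in CTL and 47.0% ± 1.91 in aCT1 (SD, n = 3).

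**Figure D1:**
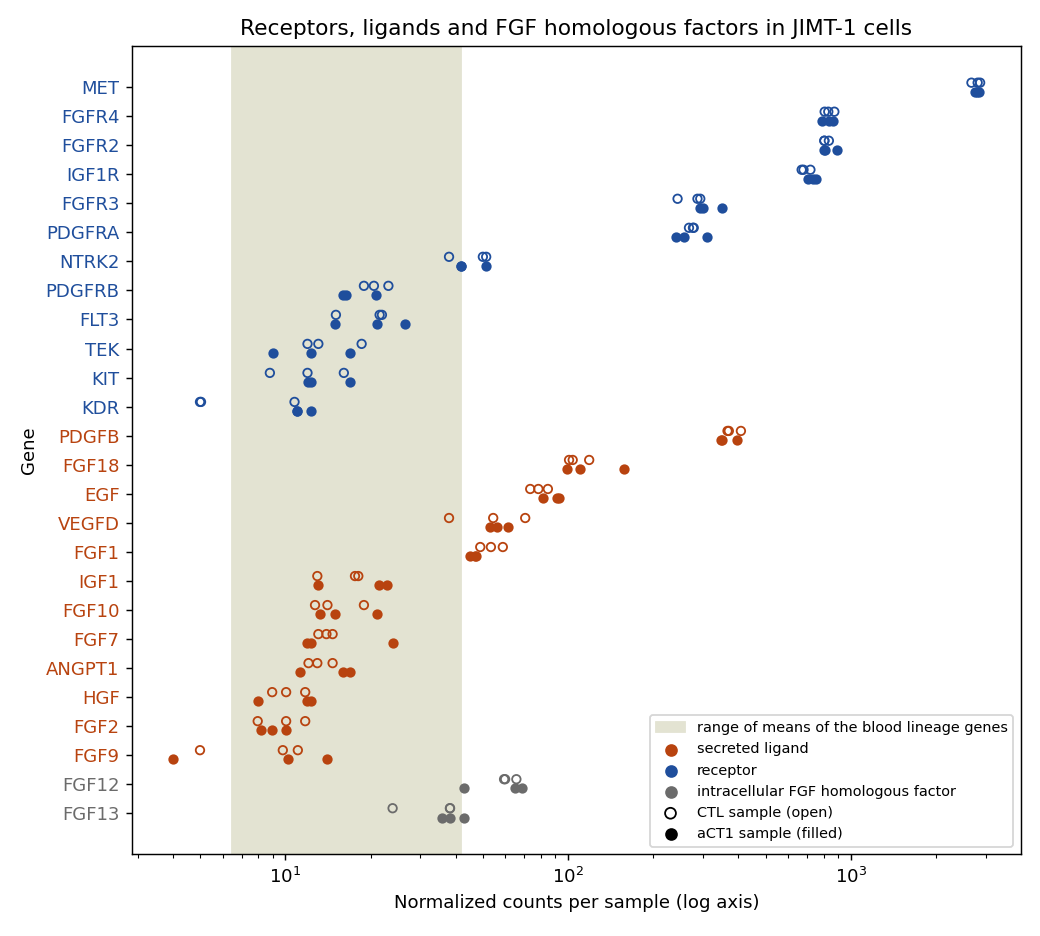
Normalized counts (log axis) of the 26 genes in each of the 3 CTL samples (open) and 3 aCT1 samples (filled), ordered by CTL mean within receptors, ligands and intracellular FGF homologous factors. The shaded band is the range of means of the 14 blood lineage genes, 6.46 to 41.9. MET lies near 2780 in both groups, and HGF, its ligand, lies inside the band.

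Of the 12 receptors, 6 had a mean of at least 100 normalized counts over the 6 samples, against 2 of the 12 ligands. This level was reached by 53.0% of all genes measured. Means at or below that of CD8A, the highest blood lineage gene, were found for 5 receptors and 7 ligands. The median of the 12 CTL means was 160 normalized counts for receptors and 15.7 for ligands, and in aCT1 it was 157 and 17.8.

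MET, the receptor of HGF, was the highest of all 26 genes. It had 2806, 2863 and 2668 normalized counts in the CTL samples and 2784, 2831 and 2749 in the aCT1 samples, and the groups overlapped fully. HGF had 11.7, 8.97 and 10.1 normalized counts in CTL and 8.01, 11.96 and 12.3 in aCT1, which is within the range of the blood lineage genes. The receptor was thus abundant and the transcript of its ligand was at the low end of the scale in each of the 6 samples. The log2 fold change of MET, aCT1 minus CTL, was 0.0051 (95% interval -0.068 to 0.078), and that of HGF was 0.050 (-0.67 to 0.77).

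The FGF receptors formed the next group. FGFR4 had 807, 832 and 874 normalized counts in CTL and 787, 835 and 862 in aCT1. FGFR2, whose epithelial form binds FGF7 and FGF10, had 805, 835 and 805 normalized counts in CTL and 891, 805 and 810 in aCT1. Neither receptor separated the groups, and their own ranges overlapped in both CTL and aCT1, so their order was not set. FGFR3 was lower, with 244, 293 and 287 normalized counts in CTL and 299, 350 and 292 in aCT1. The lowest aCT1 sample of FGFR3 was just below the highest CTL sample. FGFR3 took 14.2% ± 0.965 of the summed FGF receptor counts in CTL and 15.9% ± 1.49 in aCT1 (SD, n = 3).

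The 6 secreted FGF ligands in the table were scarce beside these receptors. Other secreted FGFs, and the receptor FGFR1, had no row in the table and were not measured. FGF18, the highest, had 104, 101 and 119 normalized counts in CTL and 110, 98.7 and 157 in aCT1, and its aCT1 mean rested on the third sample. FGF1, which binds all FGF receptors, had 58.7, 48.9 and 53.3 normalized counts in CTL and 47.1, 46.8 and 45.0 in aCT1, so every aCT1 value was below every CTL value. FGF2, FGF7, FGF9 and FGF10 had group means of 8.61 to 16.4 normalized counts, and their single values reached 24.0 (FGF7, aCT1 replicate 1). In sum, the secreted FGFs had 209 ± 12.5 normalized counts in CTL and 219 ± 31.1 in aCT1 (SD, n = 3), against 1927 ± 61.5 and 1977 ± 12.9 for FGFR2, FGFR3 and FGFR4 together. The homologous factors FGF12 and FGF13, which stay inside the cell and are known as partners of sodium channels, had CTL means of 61.6 ± 3.47 and 33.4 ± 8.23 normalized counts (SD, n = 3).

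IGF1R, the receptor of insulin-like growth factors, had 669, 719 and 680 normalized counts in CTL and 732, 754 and 707 in aCT1. Its ligand IGF1, in the body made largely by liver and stroma, had 17.6, 12.96 and 18.1 normalized counts in CTL and 13.02, 22.9 and 21.5 in aCT1. As with MET and HGF, the receptor was high and this ligand lay within the range of the blood lineage genes. IGF2, another ligand of IGF1R, had no row in the table and was not measured.

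The PDGF pair ran differently. PDGFB, the B chain of platelet-derived growth factor, was the highest of the 12 ligands. It had 366, 370 and 408 normalized counts in CTL and 394, 346 and 351 in aCT1. PDGFRA, a receptor better known from mesenchymal cells, had 278, 276 and 267 normalized counts in CTL and 256, 310 and 241 in aCT1. PDGFRB, the main receptor for the B chain in pericytes and fibroblasts, had only 20.5, 18.9 and 23.1 normalized counts in CTL and 16.02, 20.9 and 16.4 in aCT1. The 4 fibroblast genes of the list found in the table, COL6A3, FAP, THY1 and DCN, had means of 12.8 to 19.8 normalized counts, so the level of PDGFRA stood beside low values of these markers. EGF, a ligand of the HER family receptor EGFR, had 73.4, 84.7 and 78.4 normalized counts in CTL and 91.1, 92.7 and 81.8 in aCT1, where replicate 3 was below the highest CTL sample.

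Receptors of vessel and blood cells were at the low end. KDR, the main VEGF receptor of endothelium, had 10.8, 4.99 and 5.03 normalized counts in CTL and 11.01, 10.96 and 12.3 in aCT1. These values rest on 11, 5 and 5 probe counts in CTL and on 11, 11 and 12 in aCT1. Every aCT1 value of KDR was above every CTL value, though CTL replicate 1 equalled the lowest aCT1 sample in probe counts. TEK, the receptor of angiopoietins, had 18.6, 11.96 and 13.1 normalized counts in CTL and 9.01, 16.9 and 12.3 in aCT1. Its ligand ANGPT1 had 14.7, 12.96 and 12.1 normalized counts in CTL and 16.02, 16.9 and 11.2 in aCT1. KIT and FLT3, receptors of blood-forming cells, had group means of 12.3 to 20.8 normalized counts. Of the 5 endothelial genes of the marker list in the table, PECAM1 had a mean of 67.1 normalized counts and the rest lay at or below 18.5. Only CLEC14A had an unadjusted limma p under 0.05 (0.0259), with means of 20.5 in CTL and 12.7 in aCT1 and a log2 fold change of -0.70. The summed level of the 5, with PECAM1 the largest part, was 133 to 144 in CTL and 106 to 129 in aCT1. That summed level moved opposite to KDR, and its part in the KDR values was not tested. VEGFD, a VEGF family ligand, stood above the vessel receptors at 70.5, 37.9 and 54.3 normalized counts in CTL and 61.1, 52.8 and 56.2 in aCT1, with CTL the more scattered group.

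NTRK2, the receptor of BDNF, showed the opposite arrangement to MET and IGF1R. It had 49.9, 37.9 and 51.3 normalized counts in CTL and 51.1, 41.9 and 41.9 in aCT1. BDNF, which is not among the 26 genes but is the ligand of NTRK2, had 1426, 1445 and 1400 normalized counts in CTL and 1329, 1408 and 1308 in aCT1. Here the ligand transcript was high and the receptor was near the upper end of the blood lineage genes, at 41.9. The limma log2 fold change of BDNF was -0.079 (95% interval -0.16 to 0.0059), with an unadjusted p of 0.0658 in limma.

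To ask whether aCT1 changed any of these genes, all 758 genes were fitted with limma on the log2 scale. None of the 26 genes passed. At an unadjusted p under 0.05, 0 of 26 were called, where 9.37% of all genes were, 6.46% higher and 2.9% lower in aCT1. At an adjusted p under 0.05, 0 of 26 and 0 of 758 genes were called, and the smallest adjusted p in limma among the 26 was 0.526. In mean log2 value, 17 of the 26 genes were higher and 9 lower in aCT1, or 65.4% higher against 58.8% of all genes. Among ligands 9 were higher and 3 lower, with a median log2 fold change of 0.10, and among receptors 7 were higher and 5 lower, with a median of 0.020. The median over all genes was 0.018. The groups did not overlap in 2 of the 26 genes, KDR and FGF1, or 7.69% against 14.2% of all genes. KDR was the only one of the 26 that lay wholly above CTL, as did 9.37% of all genes, and FGF1 the only one wholly below, as did 4.88%.

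**Figure D2:**
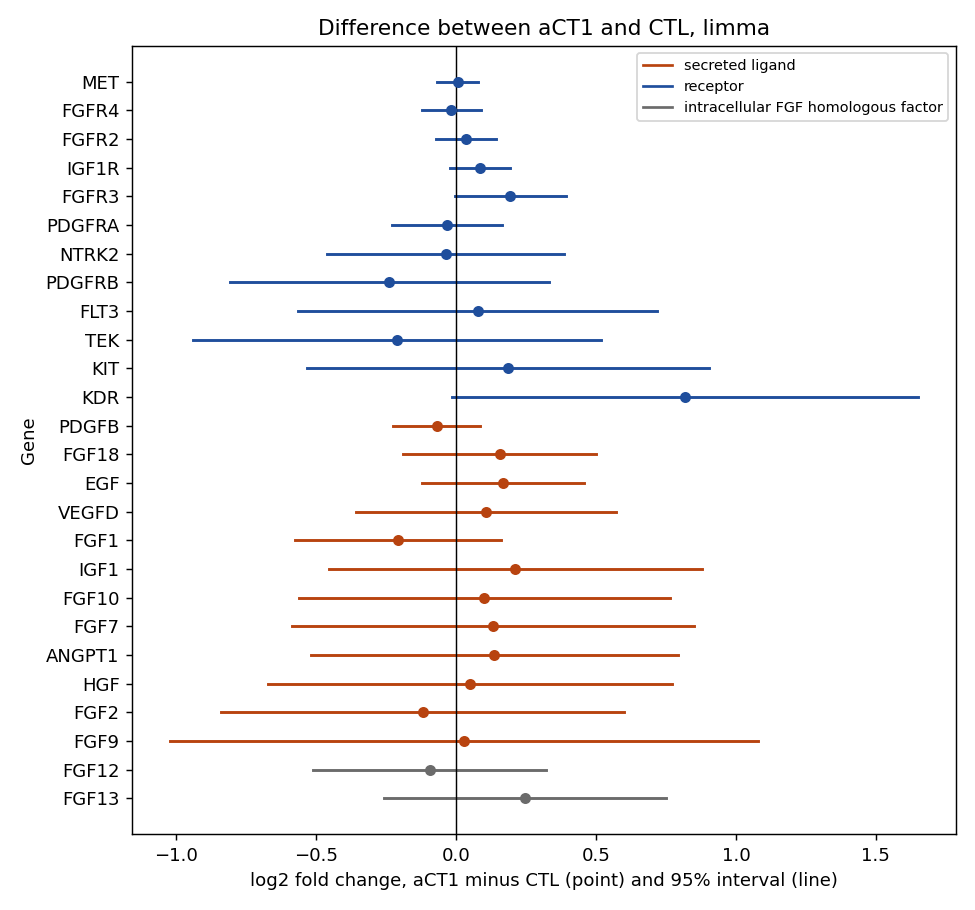
log2 fold change of each of the 26 genes, aCT1 minus CTL (points), with the 95% interval of the limma fit (lines). Every interval includes 0, and intervals of the low genes, such as KDR (-0.014 to 1.65) and FGF9 (-1.02 to 1.08), are wider than that of MET (-0.068 to 0.078).

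The genes closest to the threshold were KDR and FGFR3. KDR had 6.93 ± 3.32 normalized counts in CTL and 11.4 ± 0.738 in aCT1 (SD, n = 3). The difference was 0.82 on the log2 scale, with a standard error of 0.39 and a limma p of 0.0533 before and 0.526 after adjustment. Counting alone gives KDR a standard error of 0.40 on this scale. Of the 14 low blood lineage genes, 2 were higher (MS4A2 and CPA3) and 1 lower (CD163) at an unadjusted limma p under 0.05. Of all genes with a mean under 20, 13 of 210 (6.19%) passed this threshold, and of those with a mean of 20 to 50, 0 of 115. CPA3, with the largest rise of all 758 genes, went from a mean of 4.97 normalized counts in CTL to 11.4 in aCT1, a log2 difference of 1.19. Without CTL replicate 1 the log2 difference of KDR was 1.19, with an unadjusted limma p of 0.0116. FGFR3 had 274 ± 26.9 normalized counts in CTL and 314 ± 31.3 in aCT1 (SD, n = 3). It differed by 0.19 on the log2 scale, or 1.14-fold, with a standard error of 0.092 and a limma p of 0.0547 before and 0.526 after adjustment. FGFR3 ranked 78 and KDR 74 by p among the 758 genes. The log2 difference of FGFR3 depended on the scaling, at 0.096 with median centring, with an unadjusted limma p of 0.317, and 0.11 with quantile normalization, with an unadjusted limma p of 0.237. Its unadjusted limma p was 0.0332 with the shared replicate numbers as a block and 0.0471 over genes with a mean of at least 20, but 0.131 with a single prior variance for all genes and 0.173 with no moderation. Without CTL replicate 1 the log2 difference of FGFR3 was 0.11, with an unadjusted limma p of 0.255, and without aCT1 replicate 2 it was also 0.11, with an unadjusted limma p of 0.240.

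The abundant receptors had the narrower intervals. In the deposited scaling, the 95% interval of the fold, aCT1 over CTL, was 0.954 to 1.06 for MET, 0.918 to 1.06 for FGFR4, 0.951 to 1.10 for FGFR2 and 0.986 to 1.14 for IGF1R. IGF1R had a log2 fold change of 0.085 (unadjusted p = 0.107 in limma), which became -0.012 after median centring of the samples. This centring lowers the log2 fold change of every gene by the same 0.098, more than the median of 0.018 over all genes in the deposited scaling. Quantile normalization moved that median by -0.018 and put MET at 0.033. Under median centring MET moved to -0.093, outside its log2 interval of -0.068 to 0.078 in the deposited scaling. FGFR2 moved to -0.064 and FGFR4 to -0.11, with an unadjusted limma p of 0.0770 for FGFR4. PDGFB had a log2 fold change of -0.070 (-0.23 to 0.087), and PDGFRA one of -0.033 (-0.23 to 0.16).

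For FGF1, with 53.6 ± 4.94 normalized counts in CTL and 46.3 ± 1.15 in aCT1 (SD, n = 3), the log2 fold change was -0.21 (-0.58 to 0.16, unadjusted p = 0.244 in limma). Its replicates lay closer together than counting alone gives on average, with a replicate SD 0.476 times the counting SD. With a single prior variance for all genes the unadjusted limma p was 0.0410. EGF had a log2 fold change of 0.17 (-0.12 to 0.46) and FGF18 one of 0.15 (-0.19 to 0.50), and without aCT1 replicate 3 the value of FGF18 was -0.043.

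**Figure D3:**
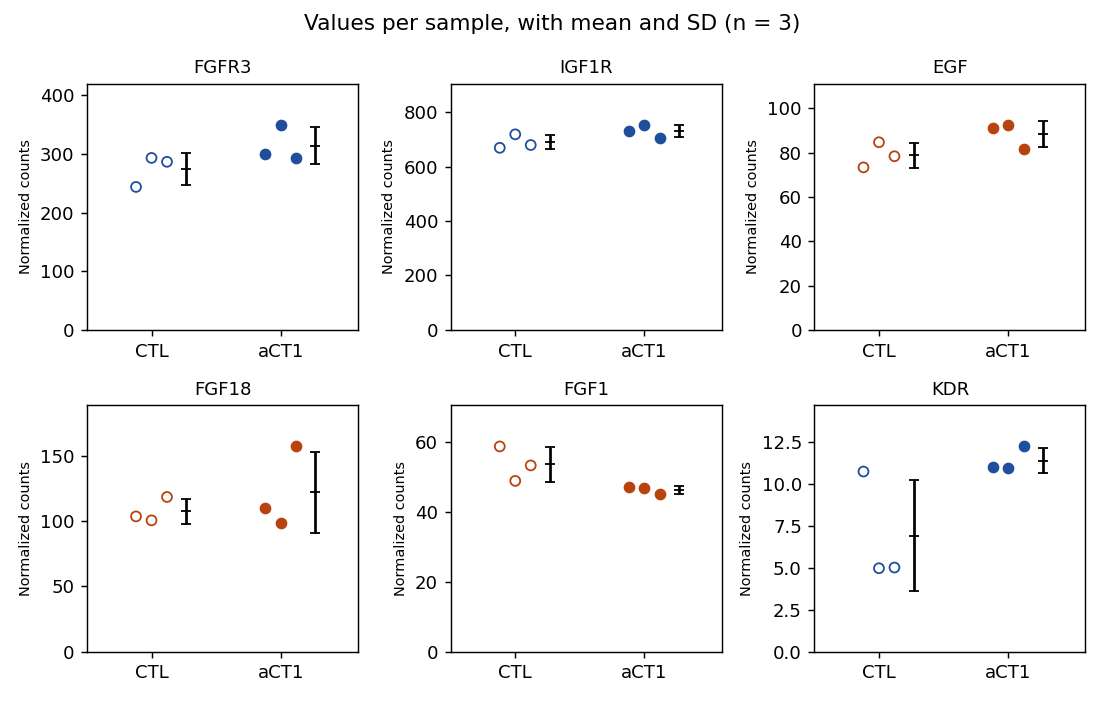
Normalized counts per sample for FGFR3, IGF1R, EGF, FGF18, FGF1 and KDR, 3 CTL (open) and 3 aCT1 samples (filled), with mean and SD beside them and each axis starting at 0. Only FGF1 and KDR have groups that do not overlap, FGF1 at 45.0 to 47.1 below 48.9 to 58.7 and KDR at 10.96 to 12.3 above 4.99 to 10.8.

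The 26 genes varied with their level as the rest of the table did. The standard error of the log2 fold change had a median of 0.061 over the 8 genes with a mean of at least 100 normalized counts and 0.33 over the 11 with a mean under 20. Over all genes it was 0.043 and 0.35 in these ranges. Replicates of the 8 abundant genes scattered 0.934 to 1.96 times as much as counting alone would give, with FGF18 the most variable. Of all genes with a mean of at least 100, 14.4% had an unadjusted p under 0.05 in limma, and none of the 8 did. The levels differ, since 7 of the 8 had a mean under 1000, against 169 of the 402 genes.

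**Figure D4:**
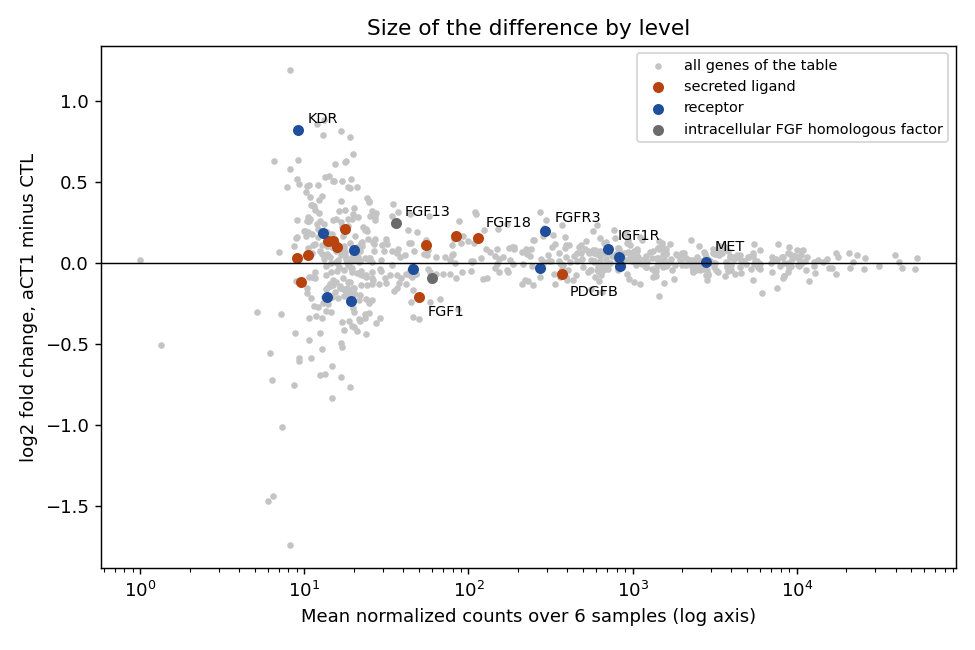
log2 fold change, aCT1 minus CTL, against the mean normalized counts over 6 samples (log axis), for all 758 genes (small grey points) and the 26 growth factor and receptor genes (coloured). The coloured points lie within the grey cloud, from -0.24 for PDGFRB to 0.82 for KDR, both with a mean under 20 normalized counts.

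The genes around these receptors were read from lists by role. The table holds 3 other ligands of receptor tyrosine kinases (BDNF, EFNA3 and EFNA5), 2 other receptors (DDR2 and TIE1), 4 adaptors and 8 feedback regulators or targets of receptor signalling. In limma, 0 of these 17 genes passed an unadjusted p of 0.05. The adaptor GRB2, which links active receptors to RAS, had 2557 ± 112 normalized counts in CTL and 2549 ± 143 in aCT1 (SD, n = 3). Among the feedback genes, DUSP4, a phosphatase that acts on MAP kinases, had 6005 ± 72.0 in CTL and 5982 ± 112 in aCT1 (SD, n = 3). ETV4, a transcription factor downstream of FGF and ERK signalling, had 3428 ± 74.6 in CTL and 3574 ± 209 in aCT1, with a log2 fold change of 0.059 (-0.026 to 0.14). SPRY2, an inhibitor of receptor signalling, had 528 ± 24.9 in CTL and 550 ± 20.1 in aCT1 (SD, n = 3), which gave a log2 difference of 0.060 (-0.062 to 0.18). FOSL1, the most abundant of the 8 feedback genes, had a log2 fold change of -0.065 (-0.14 to 0.014). DUSP6 (-0.096) and FOS (-0.17) were also lower in aCT1, and SPRY1 (0.28) and SPRY4 (0.036) were higher. The 8 genes had a median log2 fold change of 0.015, close to that of all genes.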

How the data were processed

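Probes of the nCounter Breast Cancer 360 panel were counted in RNA of 6 JIMT-1 samples. The authors used housekeeping genes to normalize the counts, in nSolver, and deposited a linear signal and its log2 values. Positive control scaling and background subtraction are not given in the sources used here. Every linear value was a whole multiple of its sample's smallest value (100% within 0.001), which gave the probe counts. No pair of replicates was within counting noise (chi-square over its degrees of freedom, 1.66 to 3.11).

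aCT1 was compared with CTL by limma 3.58.1 with a variance trend (R 4.3.3), applied to the deposited log2 values of all 758 genes, two-sided, with Benjamini-Hochberg adjustment over all of them. In 20 simulations of this comparison on the 758 genes with 200 changed, an unadjusted p under 0.05 was found for 50.7% of genes changed by 0.2 (log2), 74.3% of those changed by 0.5 and 4.36% of unchanged genes. The simulated counts had the same fixed dispersion for every gene, and these shares average over genes of all levels. A mean of at least 100 was reached by 53.0% of all genes but 30.8% of the 26, so the shares need not hold for the 26.

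The genes and lists were chosen with earlier results of these data known. Values per sample were given by rule for members with a mean of at least 100, with an unadjusted p under 0.05, the largest separated changes (at most 3), and the highest ligand and receptor of the FGF, PDGF, VEGF, IGF, angiopoietin, HGF/MET, neurotrophin and EPH families. EGF and PDGFRB were added after their values were seen. All 26 symbols matched RefSeq (GRCh38.p14), used for names alone. Alternatives were a single prior variance, no moderation, pseudocounts of 1 and 10, means of at least 20 or 50, median centring, quantile normalization, the replicate number as a block and each sample left out. A background subtraction (each sample's blood lineage median), and all alternatives for the overlap counts and receptor shares, were added after the data had been seen.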

Additional observations from a re-analysis of the deposited data

How the results depend on the processing

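The number of the 26 genes with an unadjusted limma p under 0.05 was 0 and became 1 with a single prior variance (FGF1; 48 of all 758 genes), 1 over genes with a mean of at least 20 and 1 over those with at least 50 (FGFR3 in both; 62 of 548 and 64 of 433 genes), and 1 with the replicate block (FGFR3; 70 of 758). With 1 sample left out it ranged from 0 to 1, beside 55 to 86 of all genes, the gene being KDR without CTL replicate 1 and FGFR3 without CTL replicate 2, CTL replicate 3 or aCT1 replicate 3. The count at an adjusted limma p under 0.05 was 0 under every alternative run. Of all 758 genes, 6 passed with quantile normalization, and 0 or 1 of the genes fitted passed under each other alternative. The number of the 26 genes whose groups did not overlap was 2, beside 108 of all 758. It became 3 with median centring (FGF1, FGFR4 and PDGFRB, without KDR), beside 121 of 758 genes. With quantile normalization it was 1 (FGF1), beside 98 of 758. It was 1 of 15 at a mean of at least 20 and 0 of 11 at a mean of at least 50. Beside these were 89 of 548 and 79 of 433 genes. With background subtracted it was 1 of 14, beside 80 of all genes kept. It ranged from 2 to 6 with 1 sample left out, beside 156 to 223 of the 758 genes. The number was 6 without CTL replicate 2, aCT1 replicate 1 or aCT1 replicate 3, beside 178, 187 and 181 of the 758 genes. The receptor share of 88.3% in CTL was 90.3% with background subtracted, 89.5% at a mean of at least 20 and 90.1% at a mean of at least 50, and the 88.4% in aCT1 was 90.4%, 89.6% and 90.1%. Each of these takes a larger share from the ligands, which have fewer counts. With 1 sample left out the shares ranged from 88.0% to 88.7% in CTL and from 88.0% to 88.7% in aCT1.

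Among the 16 genes named by rule, 6 of 143 log2 fold changes under alternatives with all samples changed direction, none with an unadjusted limma p under 0.05. These were MET (-0.093), FGFR2 (-0.064), IGF1R (-0.012) and HGF (-0.048) with median centring, and FGFR2 (-0.020) and HGF (-0.040) with quantile normalization. With 1 sample left out, the log2 fold change ranged across 0 for MET (-0.024 to 0.027), FGFR2 (-0.013 to 0.060), FGFR4 (-0.046 to 0.019), PDGFRA (-0.14 to 0.042), FGF18 (-0.043 to 0.29), VEGFD (-0.13 to 0.32), TEK (-0.44 to 0.014), HGF (-0.059 to 0.25) and NTRK2 (-0.18 to 0.041). It kept its sign for KDR (0.63 to 1.19), FGFR3 (0.11 to 0.24) and FGF1 (-0.27 to -0.14). The same held for IGF1R (0.062 to 0.12), PDGFB (-0.13 to -0.020), IGF1 (0.057 to 0.47) and ANGPT1 (0.025 to 0.32). The cause was not tested. As a check of pairing, samples sharing a number deviated from their groups with correlations of 0.059, 0.11 and -0.11 over all genes, so the numbers were not taken as pairs. The edgeR and DESeq2 fits planned on the recovered counts were not run. Depth limits the 11 genes with a mean under 20 normalized counts.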
